A study of Mus musculus with 8 samples.

Results

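The Notch and secretory fate regulators are 10 genes of the pathway that divides intestinal crypt cells between absorptive and secretory fates: Notch1, Mfng, Dll1, Dll4, Hes1, Hes6, Atoh1, Gfi1, Spdef and Sox4. They were chosen by name, as the rows of the deposited gene table that carry these symbols, and they make up 10 of its 23951 genes. All 10 were found and all 10 passed the filter on low values. The study sequenced 8 RNA libraries from crypts of the mouse jejunum, in 3 groups. SMAD4KO_BRAF (3 libraries) had the genotype Smad4 f/f with BRAF-V600E f/+, CDX2KO_BRAF (2 libraries) had Cdx2 f/f with BRAF-V600E f/+, and BRAF (3 libraries) had BRAF-V600E f/+ alone. Every group also carried Villin-CreER(T2), a tamoxifen-activated recombinase driven by the Villin promoter, which acts in the intestinal epithelium. The animals of every group were injected with tamoxifen on 4 days in a row, and crypts were taken 1 day later, so the activated BRAF allele is shared by all 3 groups and none of them is untreated. The comparisons ask how loss of Smad4 (which relays BMP and TGF-beta signals) or of Cdx2 (the homeobox factor of intestinal identity) bears on crypts with activated BRAF. The labels give no age or strain and do not say that the libraries came from separate animals. A p-value here thus covers the spread among libraries of which some may be technical replicates.

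Notch receptors on one cell are activated by Delta-type ligands on its neighbour, and the receptor's released intracellular part joins the DNA-binding protein RBPJ to switch on target genes such as Hes1. In the crypt, cells with active Notch express Hes1, which represses Atoh1, and take the absorptive fate. Cells that escape the signal express Atoh1, present Delta ligands to their neighbours and become goblet, Paneth, enteroendocrine or tuft cells.

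Levels are FPKM, read numbers corrected for the length of the transcript and the size of the library, and a difference between groups is given as a difference of log2(FPKM + 1) ± its standard error, a scale that understates the change of genes at low FPKM. Tests are two-sided limma tests over 12084 genes in 1 fit of all 3 groups, with p adjusted by the Benjamini-Hochberg method and a threshold of 0.05. The targeted genes were read first. Smad4 had 8.93 ± 1.61 FPKM in SMAD4KO_BRAF (SD, n = 3), against 43.9 ± 2.62 FPKM in BRAF (n = 3). Cdx2 went against its label, with 155 and 121 FPKM in the libraries labelled CDX2KO_BRAF, against 64.2, 82.6 and 80.1 FPKM in BRAF. An FPKM over the whole gene does not show whether the floxed part was lost, so each direction given below for these 2 libraries rests on their label. The number of reads per library is not known. Steps between low values put relative depth at 0.714 to 1.45, and the summed FPKM was 431269 to 595547. Y-linked genes marked SMAD4KO_BRAF library 0 and BRAF library 0 as male and the other 6 libraries as female. SMAD4KO_BRAF and BRAF thus each hold more than 1 animal, and whether the female libraries of a group came from separate animals is not known. Of the female libraries of SMAD4KO_BRAF, library 1 had 2546 FPKM of Pla2g2a and library 2 had 41.3 FPKM. The other libraries of all groups had 15.65 to 49.92 FPKM. Whether this gap reflects a difference of animal or strain was not tested. Markers of epithelial cells were abundant (enterocyte markers summed to 4810 to 37500 FPKM), while 16 endothelial markers summed to at most 5.76 FPKM, with Emcn and Sox17 at 0 in every library. Markers of T cells and intraepithelial lymphocytes, 16 genes of which none was at 0 in all libraries, differed within groups. Their sums were 58.3, 185 and 534 FPKM in SMAD4KO_BRAF libraries 0 to 2, 17.0 and 78.3 FPKM in the libraries labelled CDX2KO_BRAF, and 39.2, 1100 and 195 FPKM in BRAF libraries 0 to 2.

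Among the 10 genes, the Hes-family genes had the highest mean levels per length in SMAD4KO_BRAF and BRAF, and the fringe gene Mfng had the lowest in every group. In BRAF the mean FPKM was 38.4 ± 2.75 for Hes6, 27.5 ± 5.0 for Hes1, 21.9 ± 6.20 for Dll1, 15.7 ± 2.19 for Spdef, 7.92 ± 0.336 for Atoh1 and 4.44 ± 0.967 for Sox4 (SD, n = 3). Below these lay Notch1 at 3.31 ± 0.271, Dll4 at 2.23 ± 0.776, Gfi1 at 1.74 ± 1.35 and Mfng at 0.789 ± 0.666 FPKM. Neighbours in this order overlapped between single BRAF libraries for Hes1 and Dll1, Dll1 and Spdef, Sox4 and Notch1, Dll4 and Gfi1, and Gfi1 and Mfng, while Hes6 and Hes1, Spdef and Atoh1, Atoh1 and Sox4, and Notch1 and Dll4 did not overlap. The libraries labelled CDX2KO_BRAF had another order at the top, with Spdef at 32.8 ± 10.1 FPKM above Hes6 at 23.9 ± 0.875 and Hes1 at 23.8 ± 3.64 (SD, n = 2), and single libraries of Spdef and Hes1 overlapped there.

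**Figure D1:**
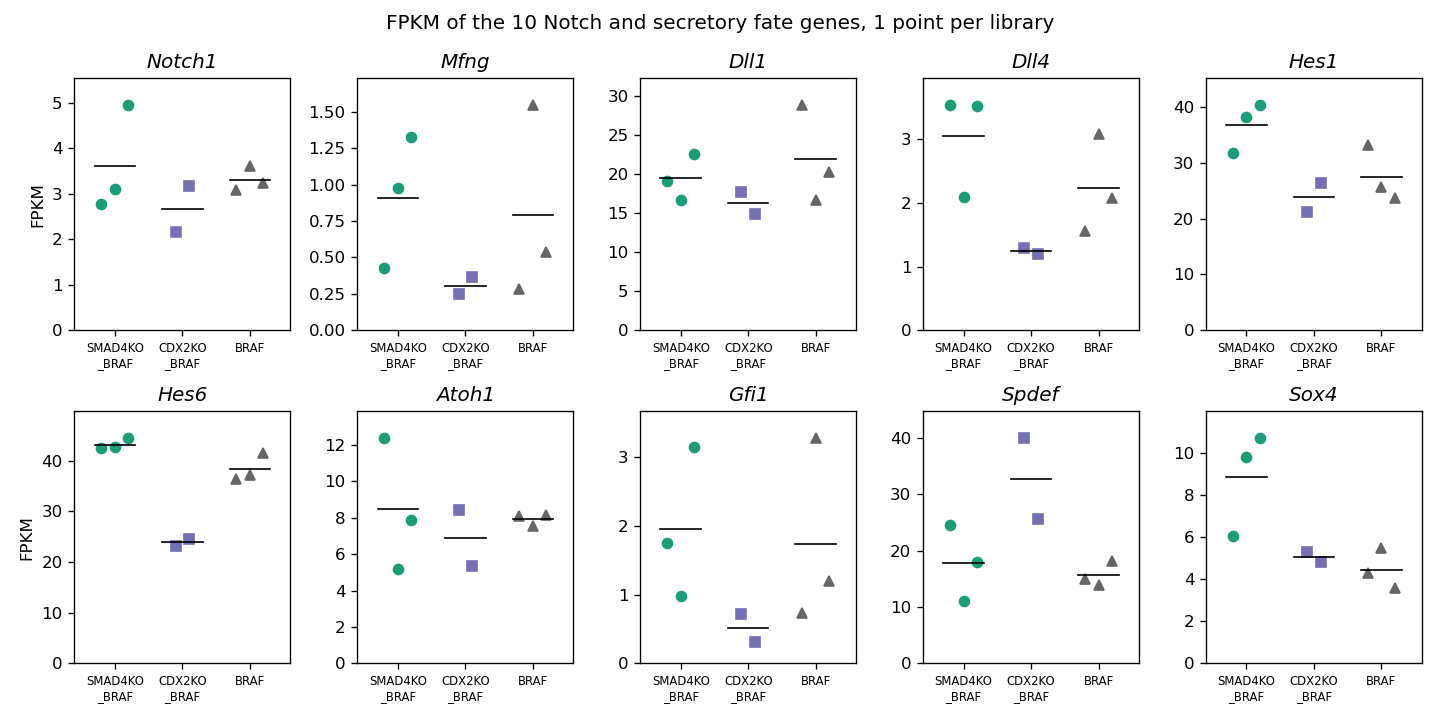
FPKM of the 10 genes on the vertical axis of each panel, where each point is a library and the line is the mean of its group. Hes6 lies at 23.3 and 24.5 in the libraries labelled CDX2KO_BRAF, below all other libraries, and Spdef is highest there at 39.9 and 25.6.

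SMAD4KO_BRAF was compared with BRAF first. None of the 10 genes passed limma's adjusted threshold, in a comparison where 0.0745% of all tested genes passed (0.0248% higher and 0.0497% lower). At an unadjusted p under 0.05, 2 of the 10, Hes1 and Sox4, were higher and none was lower, against 15.1% of all genes (6.07% higher and 9.05% lower). For 2 of the 10, Hes6 and Sox4, the SMAD4KO_BRAF libraries all lay above the BRAF libraries, and for none did they all lie below. Among all genes 19.3% did not overlap in this way (8.99% higher and 10.4% lower). The median difference over the 10 genes was log2 0.14, beside -0.01 over all tested genes.

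In the libraries labelled CDX2KO_BRAF, 1 of the 10 genes, Hes6, fell against BRAF, where 14.1% of all tested genes passed the adjusted threshold (6.89% higher and 7.21% lower). At an unadjusted p under 0.05, Spdef was higher and Hes6 lower, against 28.8% of all genes (14.6% higher and 14.2% lower). The groups did not overlap for Spdef, which was higher, nor for Hes6, Dll4 and Gfi1, which were lower. That is 4 of 10 genes, beside 48.4% of all genes (25.7% higher and 22.7% lower), so the share of genes set apart was no larger than over the whole table. The median over the 10 genes was log2 -0.31, beside 0.02 over all genes.

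Set directly against SMAD4KO_BRAF, the libraries labelled CDX2KO_BRAF again had Hes6 as the 1 gene of the 10 that fell, where 11.6% of all genes passed (6.60% higher and 5.01% lower). At an unadjusted p under 0.05, Spdef was higher, and Dll4, Hes1, Hes6 and Sox4 were lower, against 28.9% of all genes (15.7% higher and 13.3% lower). Groups did not overlap for 7 of the 10 genes, of which Spdef was higher and Hes6, Hes1, Dll4, Sox4, Gfi1 and Mfng were lower. Over all genes that share was 47.3% (25.1% higher and 22.2% lower). The median was log2 -0.56, beside 0.02 over all genes. The comparisons with BRAF share the BRAF libraries, and those with the libraries labelled CDX2KO_BRAF share these.

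**Figure D2:**
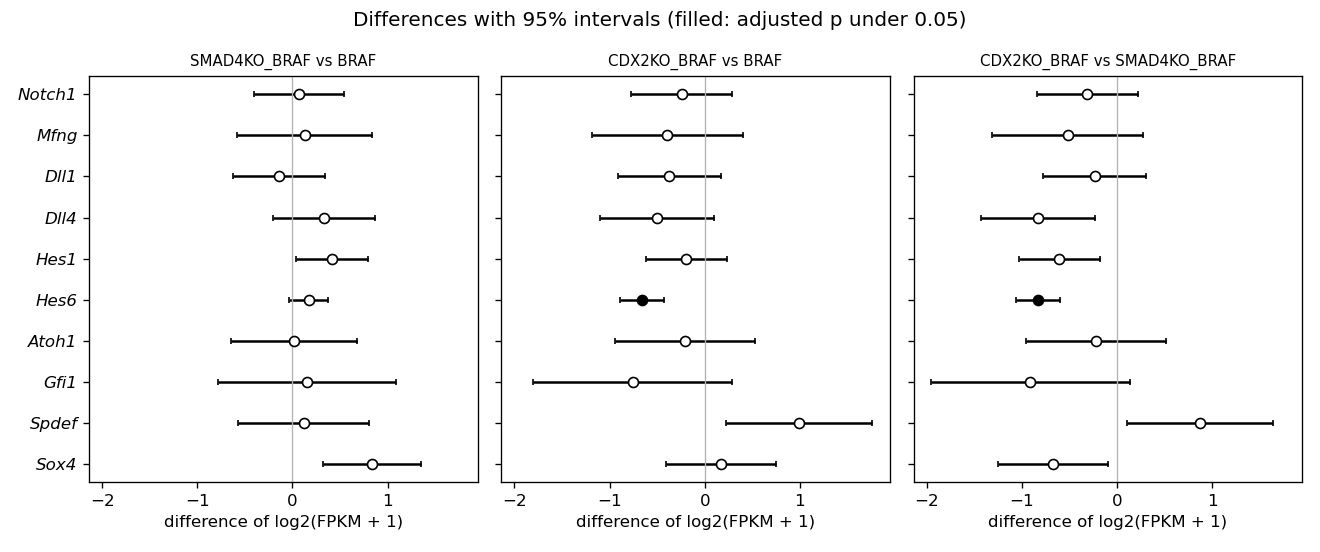
Difference of log2(FPKM + 1) for each of the 10 genes in the 3 comparisons, with its 95% interval; filled points have an adjusted p under 0.05. Hes6 is filled in both comparisons of the libraries labelled CDX2KO_BRAF, at -0.66 against BRAF and -0.83 against SMAD4KO_BRAF, and no point is filled for SMAD4KO_BRAF against BRAF.

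Notch1, the receptor, had 2.77, 3.11 and 4.94 FPKM in SMAD4KO_BRAF, 2.17 and 3.18 FPKM in the libraries labelled CDX2KO_BRAF, and 3.09, 3.61 and 3.24 FPKM in BRAF. The groups overlapped, and SMAD4KO_BRAF library 2 alone stood high. Differences were log2 0.07 ± 0.20 for SMAD4KO_BRAF and -0.24 ± 0.23 for the libraries labelled CDX2KO_BRAF against BRAF (limma adjusted p = 0.894 and 0.516), with 95% intervals of -0.41 to 0.55 and -0.78 to 0.29. Its most like gene over the 8 libraries was Nacc2 (r = 0.907). Mfng, a fringe glycosyltransferase that modifies Notch receptors and alters which ligands they respond to, had 0.427, 0.974 and 1.33 FPKM in SMAD4KO_BRAF, 0.247 and 0.368 FPKM in the libraries labelled CDX2KO_BRAF, and 0.285, 1.54 and 0.539 FPKM in BRAF. SMAD4KO_BRAF lay above the libraries labelled CDX2KO_BRAF, and BRAF overlapped both groups, with its library 0 low and its library 1 high. The differences of Mfng against BRAF were log2 0.13 ± 0.30 for SMAD4KO_BRAF and -0.39 ± 0.34 for the libraries labelled CDX2KO_BRAF (adjusted p = 0.861 and 0.482). It passed the filter through SMAD4KO_BRAF library 2 and BRAF library 1 alone. These are the 2 libraries with the highest sums of T cell markers, and the 4 libraries with the highest sums were also the 4 with the highest Mfng, as the plot of genes against marker sums shows. The same 4 had the highest sums of 14 mesenchyme and smooth muscle markers. These were 146 and 34.8 FPKM in BRAF libraries 1 and 2, and 45.2 and 54.8 FPKM in SMAD4KO_BRAF libraries 1 and 2. In log2 values, Mfng had r = 0.944 with the T cell sum, 0.917 with the mesenchyme sum and 0.907 with the sum of B and plasma cell markers. The genes whose log2 values over the 8 libraries were most like those of Mfng were Gimap3 (r = 0.990), Cd8a (r = 0.982) and Srgn (r = 0.980), all expressed in lymphocytes or other blood cells. These r describe 8 libraries that differ in cell content and group. Without the 2 libraries highest in T cell markers, a setting chosen after the data were seen, Mfng no longer reached the filter. In RNA from whole crypts, fewer cells of a type and less RNA per cell cannot be told apart. The part of lymphocytes or mesenchyme in the values of Mfng was not tested.

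Dll1 and Dll4 encode Delta-type ligands. Dll1 had 19.1, 16.7 and 22.6 FPKM in SMAD4KO_BRAF, 17.8 and 15.0 FPKM in the libraries labelled CDX2KO_BRAF, and 28.8, 16.7 and 20.3 FPKM in BRAF, with BRAF library 0 high and all groups overlapping. The differences against BRAF were log2 -0.14 ± 0.21 for SMAD4KO_BRAF and -0.37 ± 0.23 for the libraries labelled CDX2KO_BRAF (limma adjusted p = 0.761 and 0.334), and the gene most like Dll1 was Dot1l (r = 0.927). Dll4 had lower levels per length than Dll1 in every library. It had 3.53, 2.1 and 3.51 FPKM in SMAD4KO_BRAF, 1.28 and 1.20 FPKM in the libraries labelled CDX2KO_BRAF, and 1.55, 3.08 and 2.07 FPKM in BRAF. Both libraries labelled CDX2KO_BRAF lay below the other 6. The difference of Dll4 was log2 -0.83 ± 0.26 against SMAD4KO_BRAF (adjusted p = 0.0784) and -0.50 ± 0.26 against BRAF (adjusted p = 0.246), so neither passed. With library weights it was past the threshold against SMAD4KO_BRAF (adjusted p = 0.0321). Its most like gene was Bcl11b (r = 0.982 over 8 libraries), a T cell transcription factor. Dll4 was highest in SMAD4KO_BRAF libraries 0 and 2, where T cell markers summed to 58.3 and 534 FPKM, and next in BRAF library 1, where they summed to 1100 FPKM. In log2 values, Dll4 had r = 0.714 with the sum of enteroendocrine markers, 0.658 with the Paneth sum and 0.649 with the T cell sum. Its r with the sum of gastric epithelial markers was -0.869. The part of any of these cell types in the values of Dll4 was not tested.

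**Figure D3:**
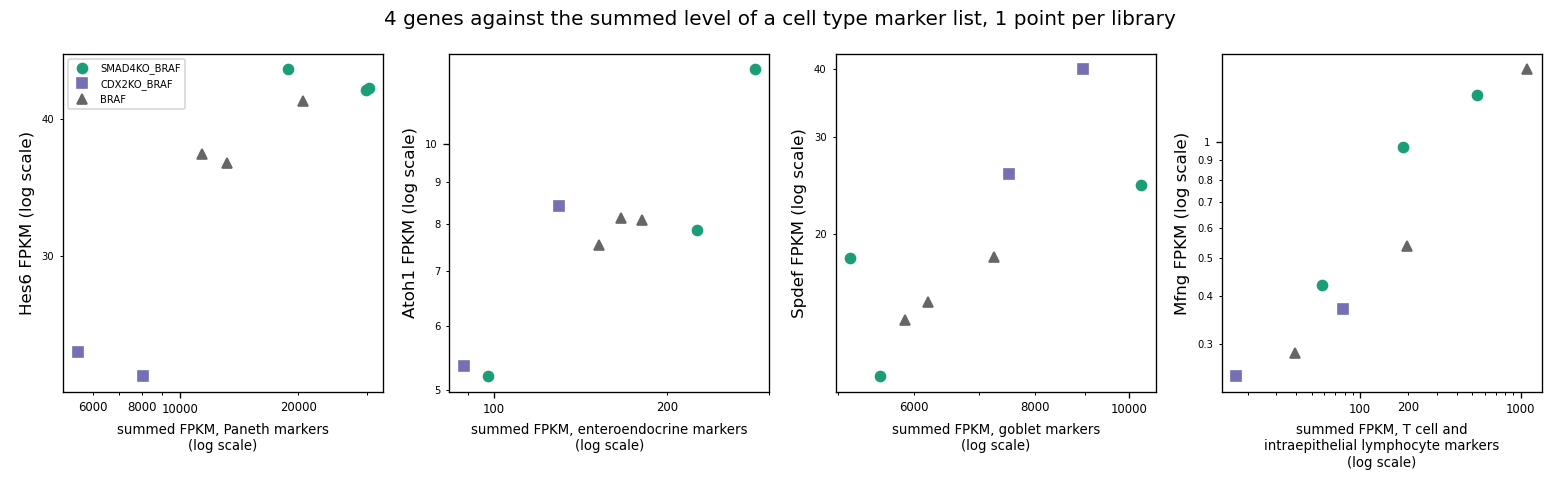
FPKM of Hes6, Atoh1, Spdef and Mfng (vertical, log scale) against the summed FPKM of Paneth, enteroendocrine, goblet and T cell markers (horizontal, log scale), with 1 point per library. Mfng runs from 0.247 FPKM at a T cell sum of 17.0 to 1.54 FPKM at 1100, and the libraries labelled CDX2KO_BRAF have the lowest Hes6 and the lowest Paneth sums, 8050 and 5480 FPKM.

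Hes1, the repressor that Notch signals switch on in absorptive progenitors, had 31.8, 38.2 and 40.3 FPKM in SMAD4KO_BRAF, 21.3 and 26.4 FPKM in the libraries labelled CDX2KO_BRAF, and 33.1, 25.7 and 23.7 FPKM in BRAF. SMAD4KO_BRAF lay above both libraries labelled CDX2KO_BRAF and overlapped BRAF through BRAF library 0. Against BRAF, the SMAD4KO_BRAF difference was log2 0.41 ± 0.16 (unadjusted p = 0.0374, limma adjusted p = 0.307), and that of the libraries labelled CDX2KO_BRAF was -0.19 ± 0.18 (adjusted p = 0.521). Against SMAD4KO_BRAF the libraries labelled CDX2KO_BRAF differed by log2 -0.61 ± 0.18 (adjusted p = 0.0744). That difference passed with quantile normalization (adjusted p = 0.0453), with library weights (0.0312) and in the 6 female libraries (0.0426), and the SMAD4KO_BRAF difference against BRAF passed with library weights alone (0.60, adjusted p = 0.0450). The genes most like Hes1 were Rbfox2 (r = 0.953), Trrap (0.939) and Haghl (0.937).

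Hes6 encodes a Hes-family protein that counteracts Hes1 and is itself expressed in cells on the secretory path. It was the 1 gene of the 10 that passed the adjusted threshold in any of the 3 comparisons. Hes6 had 42.5, 42.7 and 44.4 FPKM in SMAD4KO_BRAF, 23.3 and 24.5 FPKM in the libraries labelled CDX2KO_BRAF, and 36.5, 37.1 and 41.5 FPKM in BRAF. The 3 groups did not overlap, with the libraries labelled CDX2KO_BRAF lowest and SMAD4KO_BRAF highest. In the libraries labelled CDX2KO_BRAF, Hes6 fell by log2 0.66 ± 0.10 against BRAF, a fold of 0.633 (95% interval of the log2 difference -0.89 to -0.43, limma adjusted p = 0.00657). It also fell against SMAD4KO_BRAF, by log2 0.83 ± 0.10 (interval -1.06 to -0.60, adjusted p = 0.00360). The call against BRAF ended without CDX2KO_BRAF library 0 (-0.63, adjusted p = 0.0576) or library 1 (-0.70, adjusted p = 0.0529), each of which leaves a lone library whose spread is taken from the other groups, while the call against SMAD4KO_BRAF held under all 20 alternatives (0.00204 to 0.0387). In the ranking of genes by p against BRAF, Hes6 stood at place 449. SMAD4KO_BRAF against BRAF gave log2 0.17 ± 0.09 (adjusted p = 0.399), a difference that did not pass although the groups were apart.

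The gene most like Hes6 over the 8 libraries was Mptx2 (r = 0.989), a Paneth cell gene, ahead of Bmp3 (0.984). Mptx2 had 817, 732 and 483 FPKM in SMAD4KO_BRAF, 8.79 and 14.5 FPKM in the libraries labelled CDX2KO_BRAF, and 289, 246 and 574 FPKM in BRAF. Of 16 tested Paneth markers, 6 fell and none rose in the libraries labelled CDX2KO_BRAF against BRAF (median log2 -1.56), and 7 fell and none rose against SMAD4KO_BRAF (median -2.39), beside 7.21% and 5.01% of all genes that fell. The list holds Guca2b, which is also expressed in enterocytes and had 85.2 and 37.9 FPKM in the libraries labelled CDX2KO_BRAF. In BRAF it had 778, 429 and 646 FPKM. The part of enterocytes in these counts was not tested. The 18 listed Paneth markers summed to 29700, 30200 and 18800 FPKM in SMAD4KO_BRAF, 8050 and 5480 FPKM in the libraries labelled CDX2KO_BRAF, and 13200, 11400 and 20500 FPKM in BRAF, with Defa5 at 0 in every library. The sums separate the libraries labelled CDX2KO_BRAF from the other 6, as Hes6 does, but SMAD4KO_BRAF and BRAF overlap in them. Defa24 alone had 4841 and 3964 FPKM in the libraries labelled CDX2KO_BRAF. The markers were not uniform, since 5 of the 16 had a higher value there against BRAF and 11 a lower one. Mmp7, 1 of the 5, had 448 and 215.5 FPKM there, against 237, 130 and 243 FPKM in BRAF. Against SMAD4KO_BRAF 1 was higher and 15 were lower. The part of Paneth cells in the values of Hes6 was not tested.

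Windows around the annotated starts of Hes6 are shown because Hes6 is the gene of the 10 whose change passed. They run from 250 bases before a start to 50 after it and were taken from RefSeq on GRCm38.p6, a later build than the authors' mm9, so they carry no FPKM value. RefSeq has 2 such windows for Hes6, chr1:91413173-91413472 and chr1:91413989-91414288, both on the minus strand and written 5′ to 3′ in the gene's direction. Capitals mark E-boxes (letters CANNTG), the core bound by helix-loop-helix factors such as Atoh1.
Hes6 first window: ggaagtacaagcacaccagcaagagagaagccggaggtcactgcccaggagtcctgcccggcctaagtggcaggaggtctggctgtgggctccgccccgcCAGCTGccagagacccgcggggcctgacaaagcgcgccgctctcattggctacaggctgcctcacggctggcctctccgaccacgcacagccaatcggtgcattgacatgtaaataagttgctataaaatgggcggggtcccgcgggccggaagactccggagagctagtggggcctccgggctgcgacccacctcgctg
Hes6 second window: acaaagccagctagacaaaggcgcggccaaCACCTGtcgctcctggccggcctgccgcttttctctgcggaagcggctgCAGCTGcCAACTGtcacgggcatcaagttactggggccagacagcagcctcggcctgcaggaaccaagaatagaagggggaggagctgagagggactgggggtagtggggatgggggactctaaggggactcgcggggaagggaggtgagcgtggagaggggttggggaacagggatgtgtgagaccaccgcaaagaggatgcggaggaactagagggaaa
The first window has 1 E-box, CAGCTG at position -150 from the start. The second has 3, CACCTG at -220, CAGCTG at -171 and CAACTG at -164. Windows were found for 8 of the 10 genes. Those of Dll1, Gfi1 and Sox4 also hold CANNTG, as do 72.3% of the 32851 windows in the table, and CAGCTG, 1 of the forms of CANNTG, is in 16.3%. A match of letters is a description of the window and not evidence of binding.

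Atoh1, the helix-loop-helix factor required for the secretory lineage, had 12.4, 5.20 and 7.85 FPKM in SMAD4KO_BRAF, 8.40 and 5.36 FPKM in the libraries labelled CDX2KO_BRAF, and 8.09, 7.53 and 8.13 FPKM in BRAF. BRAF was tight and lay inside the range of SMAD4KO_BRAF. Differences against BRAF were log2 0.02 ± 0.28 in SMAD4KO_BRAF (interval -0.64 to 0.68, limma adjusted p = 0.985) and -0.21 ± 0.31 in the libraries labelled CDX2KO_BRAF (interval -0.94 to 0.53, adjusted p = 0.697). These libraries do not exclude a change of a size inside these intervals. The genes most like Atoh1 included Gcg (r = 0.934 over 8 libraries), which encodes the enteroendocrine hormone precursor proglucagon. The 19 enteroendocrine markers, of which none was at 0 in all libraries, summed to 284, 97.7 and 225 FPKM in SMAD4KO_BRAF, 130 and 88.7 FPKM in the libraries labelled CDX2KO_BRAF, and 181, 152 and 166 FPKM in BRAF. SMAD4KO_BRAF library 0 was highest and SMAD4KO_BRAF library 1 and CDX2KO_BRAF library 1 were lowest in both Atoh1 and this sum, and the part of enteroendocrine cells in the values of Atoh1 was not tested.

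Gfi1, a zinc-finger repressor that acts after Atoh1 in goblet and Paneth precursors, had 1.74, 0.973 and 3.14 FPKM in SMAD4KO_BRAF, 0.713 and 0.317 FPKM in the libraries labelled CDX2KO_BRAF, and 0.738, 3.27 and 1.21 FPKM in BRAF. Its highest values were in SMAD4KO_BRAF library 2 and BRAF library 1, the libraries with the highest T cell sums, and both libraries labelled CDX2KO_BRAF lay below the lowest BRAF library, one of them narrowly. BRAF library 1 and SMAD4KO_BRAF library 2 also had the highest sums of mesenchyme and smooth muscle markers (146 and 54.8 FPKM) and of B and plasma cell markers (16.2 and 15.9 FPKM). The part of lymphocytes or mesenchyme in the values of Gfi1 was not tested. Differences were log2 0.15 ± 0.40 for SMAD4KO_BRAF and -0.76 ± 0.44 for the libraries labelled CDX2KO_BRAF against BRAF (limma adjusted p = 0.876 and 0.308). Without both libraries high in T cell markers, the difference of the libraries labelled CDX2KO_BRAF was -0.38 (adjusted p = 0.437). The gene most like Gfi1 was 6430706D22Rik (r = 0.994), ahead of Tmem256 (0.978) and Cdca3 (0.971).

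Spdef, an ETS factor for goblet and Paneth cell maturation, had 24.5, 10.97 and 18.0 FPKM in SMAD4KO_BRAF, 39.9 and 25.6 FPKM in the libraries labelled CDX2KO_BRAF, and 15.0, 13.9 and 18.1 FPKM in BRAF. Both libraries labelled CDX2KO_BRAF lay above the other 6, and SMAD4KO_BRAF spanned BRAF. The difference of the libraries labelled CDX2KO_BRAF was log2 0.99 ± 0.33 against BRAF (interval 0.23 to 1.76, unadjusted p = 0.0179, limma adjusted p = 0.0914) and 0.88 ± 0.33 against SMAD4KO_BRAF (adjusted p = 0.126), and that of SMAD4KO_BRAF against BRAF was 0.12 ± 0.29 (adjusted p = 0.869). None passed, though the difference of the libraries labelled CDX2KO_BRAF against BRAF did when SMAD4KO_BRAF library 1 was left out (adjusted p = 0.0428) or only these 2 groups were fitted (0.0477). The genes most like Spdef were Alg1 (r = 0.947), Pitx1 (0.940) and the goblet cell peptide gene Tff3 (0.938). Of 16 goblet markers, 3 rose and none fell in the libraries labelled CDX2KO_BRAF against BRAF, namely Atp2c2 (log2 1.44), Galnt12 (1.18) and Clca1 (2.35, adjusted p = 0.0224). By direction alone, 12 of the 16 were higher and 4 lower. Clca3, also on the list and 1 of the 4, had 61.2 and 129 FPKM there. In BRAF it had 284, 116 and 451 FPKM, and the groups overlapped. Over all genes in this comparison 6.89% rose, 7.21% fell and 14.1% passed in either direction. Tff3 had 2772 and 2544 FPKM there, against 1060, 1251 and 1151 FPKM in BRAF (adjusted p = 0.0661), while the mucin gene Muc2 had 151 and 121 FPKM, against 229, 249 and 208 FPKM in BRAF (adjusted p = 0.0897). The 16 goblet markers, none at 0 in all libraries, summed to 10300, 5530 and 5150 FPKM in SMAD4KO_BRAF, 8970 and 7520 FPKM in the libraries labelled CDX2KO_BRAF, and 6200, 5870 and 7260 FPKM in BRAF. These sums put the libraries labelled CDX2KO_BRAF just above BRAF and below SMAD4KO_BRAF library 0, and the part of goblet cells in the values of Spdef was not tested.

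Sox4, an HMG-box factor known in the intestine from enteroendocrine and tuft cell precursors, had 6.05, 9.79 and 10.7 FPKM in SMAD4KO_BRAF, 5.30 and 4.79 FPKM in the libraries labelled CDX2KO_BRAF, and 4.27, 5.48 and 3.56 FPKM in BRAF. All SMAD4KO_BRAF libraries lay above the other 5, library 0 narrowly. The difference of SMAD4KO_BRAF against BRAF was log2 0.84 ± 0.22 (interval 0.32 to 1.35, unadjusted p = 0.00624, limma adjusted p = 0.215), and it passed with library weights alone (1.15, adjusted p = 0.0315). The libraries labelled CDX2KO_BRAF differed by log2 0.17 ± 0.25 from BRAF (adjusted p = 0.685) and by -0.67 ± 0.25 from SMAD4KO_BRAF (adjusted p = 0.122), the second of which passed with library weights (0.0304) and without SMAD4KO_BRAF library 0 (0.0396). SMAD4KO_BRAF library 0 is the male library of its group. Atrx (r = 0.978), Zkscan17 (0.971) and Patz1 (0.970) were the genes most like Sox4.

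Against BRAF, Spdef and Sox4 had the largest differences among the 10 genes that did not pass, and among the windows found theirs alone hold TGGGAA, the core bound by RBPJ, on either strand. They are shown for that reason, both on the minus strand of GRCm38.p6 from RefSeq, at chr17:27728902-27729201 for Spdef and chr13:28953650-28953949 for Sox4, with TGGGAA in capitals.
Spdef: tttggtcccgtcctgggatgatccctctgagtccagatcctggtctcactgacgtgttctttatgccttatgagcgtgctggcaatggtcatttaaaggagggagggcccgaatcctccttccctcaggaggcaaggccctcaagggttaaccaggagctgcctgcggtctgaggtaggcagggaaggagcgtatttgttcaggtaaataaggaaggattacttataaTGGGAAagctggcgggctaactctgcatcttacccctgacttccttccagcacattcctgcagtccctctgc
Sox4: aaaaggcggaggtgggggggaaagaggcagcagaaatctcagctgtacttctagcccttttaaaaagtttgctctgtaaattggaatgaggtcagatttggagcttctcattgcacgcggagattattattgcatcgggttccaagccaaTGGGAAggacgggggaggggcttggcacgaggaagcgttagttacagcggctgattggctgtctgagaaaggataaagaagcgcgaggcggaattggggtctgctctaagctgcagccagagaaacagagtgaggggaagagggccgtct
TGGGAA starts at position -22 in Spdef and at -100 in Sox4, and 25.6% of the 32851 windows hold it. Also searched on both strands were TTTAT, a core of CDX sites, which is in the windows of Hes6, Spdef and Sox4 and in 40.0% of all windows, and CAGAC, the SMAD box, which is in those of Dll1, Dll4, Hes6, Atoh1, Gfi1, Spdef and Sox4 and in 49.6% of all windows. The matches to TTTAT are ATAAA at -27 in the first Hes6 window, ATAAA at -28 in Sox4 and TTTAT at -191 in Spdef. That of Hes6 lies within TATAAAA, the letters of a TATA box. None of these matches is evidence of binding. The TGGGAA of Spdef and Sox4 overlaps none of the other motifs.

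The other genes of the pathway were read from 5 lists. In SMAD4KO_BRAF against BRAF none of them passed in any list by limma. At an unadjusted p under 0.05 there were 1 higher and 1 lower of 12 tested receptor, ligand and processing genes, 4 and 3 of 16 glycosylation and trafficking genes, none of 10 nuclear complex genes, none of 3 tested Notch target genes, and 6 and 1 of 18 other secretory lineage factors, beside 6.07% higher and 9.05% lower of all genes. In the libraries labelled CDX2KO_BRAF, members of every list passed against BRAF, beside 6.89% of all genes that rose and 7.21% that fell. These calls rest on 2 libraries, and all but those of Foxa1, Foxa3, Creb3l1 and Neurl1b ended when 1 library or another was left out.

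Of the receptor, ligand and processing genes, 3 rose and 1 fell in the libraries labelled CDX2KO_BRAF against BRAF. Jag1, a Serrate-type Notch ligand, had 3.83 and 3.58 FPKM, against 11.6, 6.90 and 10.7 FPKM in BRAF. All BRAF values were higher, and Jag1 fell by log2 1.16 ± 0.27 (limma adjusted p = 0.0303, 0.157 without CDX2KO_BRAF library 1). Adam10, the protease that cuts activated Notch at the cell surface, rose by log2 0.63 ± 0.15 (adjusted p = 0.0355, 0.220 without CDX2KO_BRAF library 0), Psen2, a catalytic subunit of gamma-secretase, by 0.53 ± 0.10 (0.0141, 0.113 without CDX2KO_BRAF library 1), and the receptor gene Notch4 by 1.20 ± 0.32 (0.0480, 0.247 without CDX2KO_BRAF library 1). Adam10 and Psen2 also rose against SMAD4KO_BRAF (log2 0.74 and 0.38, adjusted p = 0.0229 and 0.0496), calls that ended under 6 of 20 alternatives for Adam10 (up to 0.160) and under 16 of 20 for Psen2 (up to 0.241), including each of the 8 that left out a library.

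Of the glycosylation and trafficking genes, 2 rose and 2 fell against BRAF. Neurl1b, a ubiquitin ligase for Notch ligands, had 0.662 and 0.712 FPKM in the libraries labelled CDX2KO_BRAF, 4.07, 2.49 and 3.04 FPKM in SMAD4KO_BRAF, and 4.41, 6.18 and 4.22 FPKM in BRAF. It fell by log2 1.80 ± 0.21 against BRAF (limma adjusted p = 0.00277, at most 0.0327 with a library left out) and by 1.30 ± 0.21 against SMAD4KO_BRAF (0.0113, 0.0827 without CDX2KO_BRAF library 1). Numb, an endocytic inhibitor of Notch, fell by log2 0.82 ± 0.14 against BRAF (adjusted p = 0.0115, 0.0958 without CDX2KO_BRAF library 1). Dtx4, a Deltex-family ubiquitin ligase, had 18.1 and 20.3 FPKM in the libraries labelled CDX2KO_BRAF and 6.65, 6.78 and 6.54 FPKM in BRAF, and it rose by log2 1.40 ± 0.20 (0.00556, 0.0590 without CDX2KO_BRAF library 1). The SMAD4KO_BRAF libraries also had more Dtx4 than BRAF, at 9.53, 16.5 and 12.5 FPKM, without passing. Poglut1, which adds glucose to Notch, rose by log2 0.44 ± 0.12 (0.0476, 0.252 without CDX2KO_BRAF library 0).

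The coactivator gene Maml2 had 1.43 and 1.30 FPKM in the libraries labelled CDX2KO_BRAF, 0.130, 0.454 and 0.504 FPKM in SMAD4KO_BRAF, and 0.179, 0.342 and 0.122 FPKM in BRAF. It reached the filter on low values through the libraries labelled CDX2KO_BRAF alone, so it had to be high there to be tested, and its values are a description. Of the other 9 nuclear complex genes, 2 rose in the libraries labelled CDX2KO_BRAF against BRAF and none fell, among them Snw1 (log2 0.37 ± 0.10, limma adjusted p = 0.0454, up to 0.228 with a library left out). Of the Notch targets other than Hes1, 3 of 9 passed the filter. Hes2 had 0.110 and 0.131 FPKM in the libraries labelled CDX2KO_BRAF, against 2.54, 2.79 and 1.65 FPKM in BRAF, and fell by log2 1.55 ± 0.33 (0.0245, 0.129 without CDX2KO_BRAF library 1). Nrarp, a feedback inhibitor of Notch, had 6.63, 10.4 and 18.4 FPKM in SMAD4KO_BRAF, 4.05 and 3.73 FPKM in the libraries labelled CDX2KO_BRAF, and 5.75, 10.1 and 7.92 FPKM in BRAF. Both libraries labelled CDX2KO_BRAF were below all others in Nrarp, but the difference did not pass against BRAF (log2 -0.84, adjusted p = 0.196) or SMAD4KO_BRAF (-1.29, 0.0713). It passed against BRAF with sex as a term (adjusted p = 0.0394), and against SMAD4KO_BRAF with sex as a term (0.0150), with library weights (0.0172), in the female libraries (0.0320) and without SMAD4KO_BRAF library 0 (0.0340). Olfm4, a stem cell gene that depends on Notch, had 201, 409 and 399 FPKM in SMAD4KO_BRAF, 409 and 204 FPKM in the libraries labelled CDX2KO_BRAF, and 144, 398 and 237 FPKM in BRAF, with all groups overlapping.

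Of 18 tested other secretory lineage factors, 8 rose and 1 fell in the libraries labelled CDX2KO_BRAF against BRAF. The median was log2 0.45, beside 0.02 over all genes. In SMAD4KO_BRAF against BRAF the median of the 18 was log2 0.36, with 17 higher, 1 lower and none passing. All SMAD4KO_BRAF libraries lay above BRAF for 6 of the 18, among them Foxa2, Creb3l1 and Creb3l4. They all lay below for 1, Klf4, beside 8.99% higher and 10.4% lower of all genes. Directly between the libraries labelled CDX2KO_BRAF and SMAD4KO_BRAF the median was log2 0.01, with 9 higher and 9 lower. The 8 include Pou2f3, which passed the filter on low values only because it was high in the libraries labelled CDX2KO_BRAF. Foxa1, a forkhead factor active in goblet and enteroendocrine cells, had 42.9 and 38.6 FPKM there, 14.6, 18.0 and 14.8 FPKM in SMAD4KO_BRAF, and 13.5, 10.6 and 11.7 FPKM in BRAF. Both libraries labelled CDX2KO_BRAF stood well above the other 6, and Foxa1 rose by log2 1.70 ± 0.14 against BRAF and 1.32 ± 0.14 against SMAD4KO_BRAF (limma adjusted p = 0.000886 and 0.00243). Foxa3 rose by log2 1.45 ± 0.13 and the secretory pathway factor Creb3l1 by 1.44 ± 0.16 against BRAF (0.00102 and 0.00215). The calls of Foxa1, Foxa3 and Creb3l1 against BRAF held under all 20 alternatives. Klf4, a goblet cell factor, had 90.7 and 104 FPKM in the libraries labelled CDX2KO_BRAF, 16.9, 14.9 and 11.4 FPKM in SMAD4KO_BRAF and 49.8, 34.8 and 28.8 FPKM in BRAF. It rose by log2 1.37 ± 0.25 against BRAF (0.0131, 0.102 without CDX2KO_BRAF library 1) and by 2.68 ± 0.25 against SMAD4KO_BRAF (0.00139, held under all 20 alternatives). Foxa2 (log2 0.87), Creb3l4 (0.93) and Xbp1 (0.62), which drives the secretory machinery, also rose against BRAF (0.0241, 0.0334 and 0.0377), and each of these 3 calls ended without 1 library or another (up to 0.156, 0.189 and 0.223).

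Pou2f3, the determinant of tuft cells, had 3.48 and 7.004 FPKM in the libraries labelled CDX2KO_BRAF, 0.863, 0.180 and 1.27 FPKM in SMAD4KO_BRAF, and 0.194, 0.400 and 0.428 FPKM in BRAF. Both libraries labelled CDX2KO_BRAF lay above the other 6. The difference of Pou2f3 against BRAF was log2 2.16 ± 0.34 (limma adjusted p = 0.00814), and 1.75 without CDX2KO_BRAF library 1. Of the other 6, only SMAD4KO_BRAF library 2 reached 1 FPKM. Pou2f3 thus had to be high in the libraries labelled CDX2KO_BRAF to be tested, so its test carries no weight and its values are a description. Gnat3, a tuft marker at 3.57 and 3.79 FPKM there and at most 0.197 FPKM in the other libraries, reached the filter through these libraries alone. Of the other 8 tested tuft markers, 5 rose and none fell there against BRAF, beside 6.89% of all genes that rose. The 11 tuft markers in the table, none at 0 in all libraries, summed to 61.9 and 154 FPKM there, 16.0, 9.16 and 22.7 FPKM in SMAD4KO_BRAF, and 9.34, 13.8 and 11.3 FPKM in BRAF. The part of tuft cells in the values of Pou2f3 was not tested. Neurog3, the determinant of enteroendocrine cells, had 0.381 and 0.0372 FPKM in the libraries labelled CDX2KO_BRAF, 4.33, 2.09 and 3.43 FPKM in SMAD4KO_BRAF and 1.95, 2.36 and 2.17 FPKM in BRAF. Both libraries labelled CDX2KO_BRAF lay far below the other 6, and Neurog3 fell by log2 1.40 ± 0.26 against BRAF (0.0134, 0.108 without CDX2KO_BRAF library 1) and by 1.80 ± 0.26 against SMAD4KO_BRAF (0.00681, 0.0688 without CDX2KO_BRAF library 1). Of 14 tested enteroendocrine markers, 2 fell against BRAF, Chgb (log2 -1.52, 0.0361) and Nts (-1.81, 0.0403), and none rose. Over all genes in that comparison 7.21% fell, 6.89% rose and 14.1% passed in either direction. Against SMAD4KO_BRAF, 5 of the 18 lineage factors rose and Neurog3 fell, beside 6.60% of all genes that rose and 5.01% that fell. The 5 were Foxa1, Foxa3, Klf4, Creb3l1 and Pou2f3, and the test of Pou2f3 against SMAD4KO_BRAF carries no weight either. The calls of Creb3l1, Foxa3 and Pou2f3 there ended when a library was left out (adjusted p up to 0.163, 0.0525 and 0.133). Gastric epithelial markers, 14 genes of which Sox2 and Tff1 were at 0 in every library, also set the libraries labelled CDX2KO_BRAF apart, with sums of 2650 and 8610 FPKM there, 31.7, 20.3 and 1.55 FPKM in SMAD4KO_BRAF, and 154, 1.19 and 22.0 FPKM in BRAF. Foxa1, Foxa3, Klf4 and Spdef are known from gastric epithelium as well, and the part of gastric-type cells in their values was not tested.

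**Figure D4:**
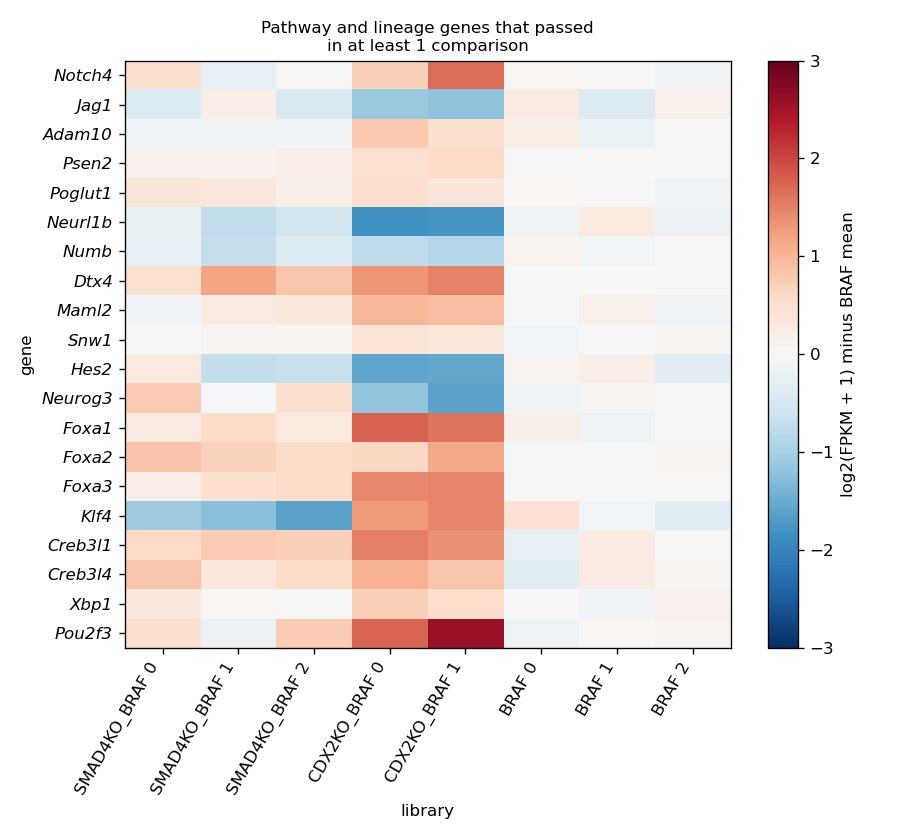
Colour gives the difference of log2(FPKM + 1) from the mean of the BRAF libraries for 20 pathway and lineage genes that passed in at least 1 comparison (rows) in each library (columns). In the libraries labelled CDX2KO_BRAF, Pou2f3 is at 1.75 and 2.58 and Neurog3 is below 0, and Klf4 is below the BRAF mean in every SMAD4KO_BRAF library.

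The library kit named in the labels does not mark strand. An annotated gene on the opposite strand overlaps 5 of the 10 genes (Notch1, Dll1, Dll4, Gfi1 and Sox4), and reads of such pairs cannot be told apart.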

How the data were processed

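Libraries (TruSeq kit v2, 50 bp single-end reads, per the labels' protocols) came from crypts freed with 3 mM EDTA and passed through a 70 micron filter. The authors deposited 1 table of FPKM. The submitters' processing notes name TopHat2 2.1.0, Cuffnorm 2.2.1, Cuffdiff 2.2.1 and mm9; which program made the table is not given in the sources used here. Columns of the table are numbered from 0, whereas titles of samples start at 1; columns therefore map to groups, not to single samples, and libraries are called by column number. The 3 control columns matched no sample and were not used here.

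Genes with at least 1 FPKM in at least 2 of 8 libraries were tested on log2(FPKM + 1) with limma 3.58.1 (R 4.3.3, mean-variance trend), fitted across all genes and adjusted per comparison. On simulated data for SMAD4KO_BRAF against BRAF (10 runs, 11837 genes, 200 changed genes), 64.4% of changes of log2 1 and 92.2% of log2 2 were recovered, and 6.01% of calls were false. The adjusted threshold loosens as more genes change, and in the data 9 genes passed in this comparison. Recovery there may thus be lower than simulated. These rates also do not carry over to the comparisons with the 2 libraries labelled CDX2KO_BRAF. The 10 genes and the lists were chosen with earlier results of these data known. Of the lists, called genes and up to 4 with the smallest adjusted p are named. Tff3, Muc2, Clca3, Guca2b, Pla2g2a, Nrarp and Olfm4 were picked after their values were seen. Like genes are up to 3 of the highest Pearson r with a mean of at least 5 FPKM. Single values of some genes that these rules name are not reported here. The alternatives changed the pseudocount (0.1), the filter (none, or 5 FPKM), the scaling (median-ratio, quantile), the trend, library weights, sex (a term, or female libraries only), the groups fitted, a block by column number, or left out a library. Leaving out both libraries highest in T cell markers, and following pathway genes through every alternative, were chosen after seeing the data. Python 3.11.15, numpy 2.4.6, pandas 2.3.3 and matplotlib 3.10.9 made tables and figures.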

Additional observations from a re-analysis of the deposited data

Results flagged for a closer look

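Of 69 tested genes among the 10 and the pathway lists, 11 differed between the libraries labelled CDX2KO_BRAF and SMAD4KO_BRAF by a direct test in the fit of all groups (limma, difference of log2(FPKM + 1), adjusted over all tested genes), which is also the test of whether their differences against BRAF differ. Over all genes 11.6% did. Cdx2 itself was higher in the libraries labelled CDX2KO_BRAF, so these directions rest on the label. Hes6 differed by -0.83 (adjusted p = 0.00360), Neurl1b by -1.30 (0.0113) and Neurog3 by -1.80 (0.00681), and these 3 were lower in the libraries labelled CDX2KO_BRAF. Higher there were Klf4 by 2.68 (0.00139), Pou2f3 by 1.81 (0.0179), Foxa1 by 1.32 (0.00243), Foxa3 by 1.02 (0.00446), Creb3l1 by 0.74 (0.0259), Adam10 by 0.74 (0.0229) and Psen2 by 0.38 (0.0496). The 11 include Maml2 (0.81, adjusted p = 0.0467), which reached the filter on low values through the libraries labelled CDX2KO_BRAF alone, so that its test carries no weight. The test of Pou2f3 carries none either, since outside those libraries it reached 1 FPKM only in SMAD4KO_BRAF library 2. The calls of Hes6, Klf4 and Foxa1 held under all 20 alternatives, while that of Psen2 ended under 16 of 20, Creb3l1 under 8 of 20, Adam10 under 6 of 20, Neurl1b and Pou2f3 under 2 of 19, Neurog3 under 1 of 19 and Foxa3 under 1 of 20. No group has 4 or more libraries, so single libraries were not tested as outliers.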

How the results depend on the processing

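Over the 10 genes, 3 comparisons and up to 20 alternatives, 544 values kept their direction and side of the threshold, 10 moved past the threshold, 2 lost it and 21 changed sign, all 21 of them differences that did not pass. The libraries are few and their read counts unknown, so a difference that did not pass may still have any size inside its stated interval. Atoh1 in the libraries labelled CDX2KO_BRAF ranged from -0.488 to 0.077 against BRAF and from -0.505 to 0.061 against SMAD4KO_BRAF with 1 library left out, and was 0.061 against SMAD4KO_BRAF in female libraries. In SMAD4KO_BRAF against BRAF, leaving out 1 library gave -0.267 to 0.287 for Atoh1, -0.309 to 0.065 for Dll1, -0.126 to 0.526 for Gfi1, -0.08 to 0.323 for Mfng, -0.13 to 0.198 for Notch1 and -0.136 to 0.41 for Spdef. There, library weights gave -0.091 for Atoh1 and -0.048 for Spdef, and female libraries gave -0.252 for Atoh1, 0.074 for Dll1, -0.103 for Gfi1 and -0.162 for Spdef. Without both libraries highest in T cell markers, Atoh1 and Spdef were each at -0.001 and Notch1 at -0.081. The cause of these changes was not tested.

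The number of all genes called for SMAD4KO_BRAF against BRAF was 9, and it was 5 with no filter, 1069 with library weights, 78 with sex as a term, 16 in female libraries, 19 without both T cell-rich libraries and 5 to 25 with 1 library left out. For the libraries labelled CDX2KO_BRAF against BRAF it was 1704, and 2602 with weights, 1083 without both T cell-rich libraries and 409 to 1833 with 1 library left out. Against SMAD4KO_BRAF it was 1402, and 2447 with weights, 750 without both T cell-rich libraries and 234 to 1423 with 1 library left out. Of the 10 genes, SMAD4KO_BRAF against BRAF called 0, and 2 with weights (Hes1 and Sox4). The libraries labelled CDX2KO_BRAF called 1 against BRAF, 2 when only these groups were fitted, and 0 to 2 with 1 library left out. Against SMAD4KO_BRAF they called 1, and 2 with quantile normalization, 4 with weights, 2 in female libraries and 1 to 2 with 1 library left out. Whether column numbers pair the samples could not be told. Same-number libraries had correlated deviations of -0.109 to 0.241, and libraries of different numbers -0.332 to 0.312. Deviations within a group of 2 or 3 libraries are tied to each other, and the highest same-number value joins the 2 male libraries. With a block for the column number, 10 genes were called for SMAD4KO_BRAF against BRAF, 1181 for the libraries labelled CDX2KO_BRAF against BRAF and 805 against SMAD4KO_BRAF, and of the 10 genes 0, 1 and 1. A block for the numbers in the sample titles could not be fitted, since the columns carry none of them.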
